A study of Arabidopsis thaliana with 35 samples.

Results

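The genes described here are 10 Arabidopsis genes of nitrate assimilation and nitrogen recycling, out of 27417 genes counted in each library. They are the nitrate reductases NIA1 (AT1G77760) and NIA2 (AT1G37130), the nitrite reductase NIR1 (AT2G15620), the nitrate transporters NRT1.1 (AT1G12110) and NRT2.1 (AT1G08090), the glutamine synthetases GLN1;1 (AT5G37600) and GLN2 (AT5G35630), the glutamate dehydrogenases GDH1 (AT5G18170) and GDH2 (AT5G07440), and the asparaginase ASPGB1 (AT3G16150). They were chosen by gene ID for these roles, at a time when results of the same libraries were already known, among them the lower NIA1 level after 3 days of ethanol. That difference is therefore given as a description. NIA1 was fitted together with the other genes and its call after these 3 days is printed, but nothing is read from it. No threshold on a value decided which genes were taken. As other results of these libraries were known too, the p-values of the other genes do not come from data unseen at the choice.

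The study asked how a pretreatment with ethanol changes the response of plants to drought. The 35 libraries come from shoots of Col-0 plants and form 7 groups of 5. One group was taken before the pretreatment. The other groups stood for 3 days in water or in 10 mM ethanol and were then left without water, and their shoots were harvested on day 0, 10 or 13 of the drought (days after drought, DAD). All groups were of the genotype Col-0 and shared the first days on MS medium and the later growth in granular ceramic soil, so the water-treated plants at the same DAD are the control of each ethanol group. The source of the separate samples within a group is not stated in the labels. The p-values set a difference against the spread between the 5 samples of each group, and the gene tests also use the spread of the other genes.

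Plants take up nitrate through transporters such as NRT1.1, which also senses nitrate, and NRT2.1, a high-affinity transporter used mainly by roots. Nitrate reductase in the cytosol turns nitrate into nitrite, and nitrite reductase in the plastid turns nitrite into ammonium, which glutamine synthetase binds to glutamate. Leaves carry GLN2 in the chloroplast, where it also recaptures the ammonium of photorespiration, while cytosolic GLN1 enzymes and glutamate dehydrogenases are known for work in ageing leaves, in which nitrogen is moved out. Asparaginase splits asparagine, a transport form of nitrogen, into aspartate and ammonium.

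Because both nitrate reductases and both glutamate dehydrogenases went apart from each other during drought, the 100 bases in front of the annotated start of these 4 genes are shown, read from the reference assembly TAIR10.1 with the RefSeq annotation. NIA1 lies on the minus strand of chromosome 1 and its stretch is chr1:29239485-29239584. The stretches of NIA2, GDH1 and GDH2 are chr1:14158352-14158451, chr5:6005935-6006034 and chr5:2355659-2355758, all on the plus strand. Each is written 5′ to 3′ along the gene, and capitals mark the motif matches named after them, sought on both strands.
NIA1: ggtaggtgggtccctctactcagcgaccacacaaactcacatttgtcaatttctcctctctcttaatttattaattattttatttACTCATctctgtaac
NIA2: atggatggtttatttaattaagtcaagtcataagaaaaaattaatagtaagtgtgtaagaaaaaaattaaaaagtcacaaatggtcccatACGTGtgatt
GDH1: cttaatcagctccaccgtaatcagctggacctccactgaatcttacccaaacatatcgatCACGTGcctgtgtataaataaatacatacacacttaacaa
GDH2: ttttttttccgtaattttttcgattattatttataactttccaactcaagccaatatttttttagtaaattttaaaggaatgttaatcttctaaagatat

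The motif ACTCAT, known from genes that respond to low energy and to proline, stood in the 250 bases before the start of NIA1 and NRT1.1 and in 12.3% of the 26713 genes with such a stretch. ACGTG, the core of the element that abscisic acid response factors bind, stood in front of NIA2 and GDH1 and of 23.1% of all genes. CACGTG, the G-box, contains it and stood only in front of GDH1 among the 10 genes and in front of 6.58% of all genes. The evening element AAAATATCT, the motif GACCCTT of nitrate response, the phosphate starvation motif GAATATTC and the longer nitrate-responsive element stood in front of 2.4%, 1.13%, 0.865% and 0.146% of all genes and of 0 of the 10. A match is a run of letters and not a known site, and no match says only that these letters are not in this stretch.

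The RefSeq annotation places NIA1, NIA2, NRT1.1 and NRT2.1 on chromosome 1, NIR1 on chromosome 2, ASPGB1 on chromosome 3 and the other 4 genes on chromosome 5. NIA1 spans positions 29235721 to 29239484 with 4 exons, NIA2 14158452 to 14161938 with 3 exons, and ASPGB1 5471735 to 5473360 with 4 exons. GDH1 spans positions 6006035 to 6008726 with 9 exons, and GDH2 2355759 to 2358241 with 7 exons in its longest transcript. No other counted gene overlaps any of the 10 on the same strand, and GDH1 has a gene (AT5G18180) on the opposite strand, which strand-specific counting kept apart. None has another stretch in the genome that is at least 95% identical over 100 bases, and the closest pair was GDH1 with the third glutamate dehydrogenase gene, at 94.1% identity over 119 bases.

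Totals per library were 3589540 to 13440389 counts, and the libraries of a group resembled one another (mean correlation of a library with its own group 0.951 to 0.977). Levels are the deposited normalized counts, which are raw counts scaled by 1 factor per library. A gene was called higher or lower where edgeR's quasi-likelihood test, fitted over all genes of the 10 libraries compared, gave a Benjamini-Hochberg adjusted p under 0.1 and the log2 fold change was 1 or more in size. NRT2.1 had too few counts to enter any of these tests, so 9 of the 10 genes were tested in each comparison.

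At 0 DAD, after the 3 days of ethanol, NIA1, NIA2 and NIR1 had lower counts in every ethanol-treated sample than in any water-treated sample. The lower NIA1 level was known when the genes were chosen. How many of all genes had groups apart in this way, at this or another time, was not counted. Such gaps between groups are therefore descriptions only. At 13 DAD, ASPGB1 was far higher in the ethanol-treated plants, while NIA2 and GDH2 were lower. GLN2 and GDH1 fell and GLN1;1 rose from 0 to 13 DAD in both pretreatments. The plot of normalized counts shows all 10 genes in every library.

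**Figure D1:**
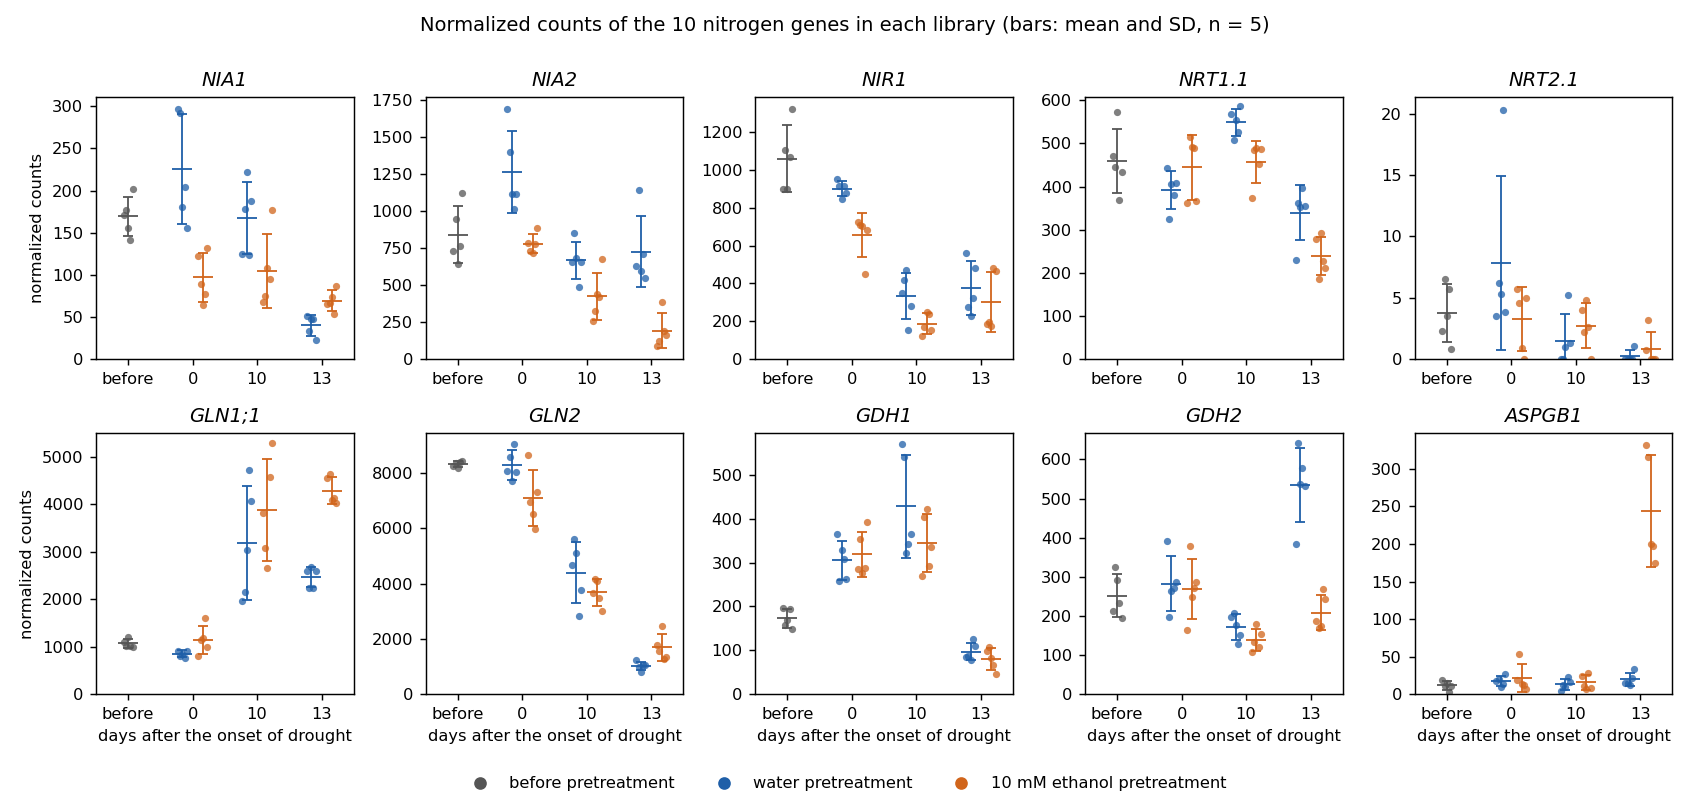
Normalized counts (y axes, linear, starting at 0) of the 10 genes in each library before the pretreatment and at 0, 10 and 13 DAD (x axes). Points are libraries in water (blue), 10 mM ethanol (orange) or before the pretreatment (grey), and bars are the mean and SD of 5 libraries; ASPGB1 stands between 175 and 332 in the ethanol-treated plants at 13 DAD and at 54.1 or lower in every other library.

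In counts, ethanol against water at 0 DAD gave 1 of the 9 tested genes as lower (NIA1), where 0.029% of all 17242 tested genes were called lower. This call belongs to the values known when the genes were chosen, and nothing is read from it. Leaving NIA1 aside, NIA2 and NIR1 had an adjusted p under 0.1 without reaching the fold threshold, both with a lower level, and 0.307% of all genes were lower at such a p. At 10 DAD edgeR called 0 of the 9 genes and DESeq2 also called 0, where 0.068% of all genes were called in either direction. An unadjusted p under 0.05 was found for 4 of the 9 and for 1436 of all 16171 genes. At 13 DAD ASPGB1 was called higher, as were 8.79% of all tested genes, and NIA2 and GDH2 were called lower, as were 4.78% of all tested genes. Without the fold threshold 7 of the 9 genes had an adjusted p under 0.1 at 13 DAD, and 40.7% of all genes did.

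**Figure D2:**
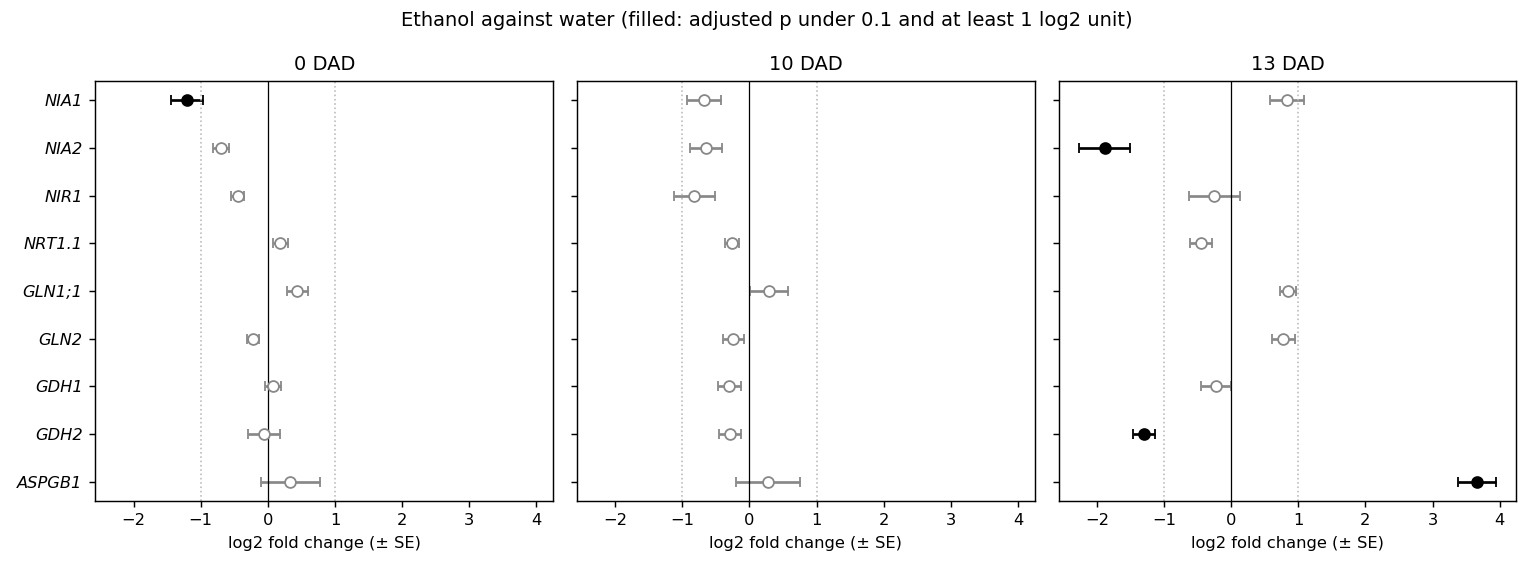
Log2 fold change of ethanol-treated against water-treated plants (x axes, with the SE as bars) for the 9 tested genes at 0, 10 and 13 DAD. Filled points passed the test, and the filled NIA1 point at 0 DAD belongs to the values known when the genes were chosen. At 13 DAD the ASPGB1 point stands at 3.66 and NIA2 at -1.88, and at 10 DAD no point is filled.

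Nitrate reductase carries the first step of assimilation, and NIA2 is known to give most of its activity in leaves. NIA1 had 171, 177, 155, 142 and 202 normalized counts in the 5 libraries before the pretreatment. After 3 days it had 297, 292, 180.1, 205 and 156 in the water-treated plants and 122, 89.0, 64.0, 77.1 and 132 in the ethanol-treated plants. The ethanol samples all lay below the water samples, with means of 96.8 ± 29.2 against 226 ± 65.1 (SD, n = 5) and a log2 difference of -1.21. That call was lost without ethanol-treated replicate 2 or without replicate 4. At 10 DAD NIA1 had 125, 178, 222, 124 and 187 in water-treated plants and 67.2, 74.9, 108, 94.8 and 177 in ethanol-treated plants, and the groups overlapped (log2 fold change -0.68, SE 0.25, adjusted p = 0.411).

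At 13 DAD NIA1 had 50.6, 32.9, 47.7, 47.9 and 22.1 in water-treated plants and 65.0, 67.0, 73.5, 53.0 and 87.1 in ethanol-treated plants. Here the ethanol samples lay above all water samples, by less than the fold threshold (log2 fold change 0.84, SE 0.25, adjusted p = 0.0171). With scaling by library size alone the value was 1.09 and NIA1 was called higher. In the water-treated plants NIA1 fell between 10 and 13 DAD (log2 fold change -2.1, SE 0.23, adjusted p = 1.18e-07). In the ethanol-treated plants the same step did not reach the fold threshold (log2 fold change -0.57, SE 0.25, adjusted p = 0.0639). The ethanol difference at 13 DAD exceeded that at 10 DAD by a log2 difference of 1.5 (interaction, adjusted p = 0.00453).

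NIA2 moved the other way at the end of the drought. It had 726, 947, 644, 763 and 1119 normalized counts before the pretreatment, 1688, 1398, 1116, 1010.0 and 1116 after 3 days of water and 785, 732, 718, 775 and 882 after 3 days of ethanol. All ethanol samples lay below all water samples at 0 DAD (log2 fold change -0.69, SE 0.12, adjusted p = 0.0156), which passes the adjusted p but not the fold threshold. The ethanol samples lay near the level before the pretreatment (log2 fold change -0.10, SE 0.12, adjusted p = 0.63), while the water samples lay above it, again under the fold threshold (log2 fold change 0.60, SE 0.19, adjusted p = 0.0716).

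At 10 DAD NIA2 had 652, 849, 679.5, 489.9 and 658 in water-treated plants and 258, 324, 439, 419 and 678 in ethanol-treated plants, which overlapped (log2 fold change -0.64, SE 0.23, adjusted p = 0.442). At 13 DAD the water-treated plants had 628, 1142, 596, 707 and 547 and the ethanol-treated plants 89.8, 119.7, 389, 191 and 164. The highest ethanol sample was below the lowest water sample (log2 fold change -1.88, SE 0.38, adjusted p = 0.00406). NIA2 fell in the ethanol-treated plants between 10 and 13 DAD (log2 fold change -1.15, SE 0.39, adjusted p = 0.026), a call lost without ethanol-treated replicate 5 at 10 DAD or replicate 1 at 13 DAD. In the water-treated plants the same step did not pass the test (log2 fold change 0.07, SE 0.18, adjusted p = 0.752). The interaction between these steps was -1.25 with an adjusted p of 0.0703, and leaving out any 1 of 6 libraries ended the call.

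NIR1, which supplies ammonium from nitrite in the plastid, had 899, 1106, 897, 1069 and 1325 normalized counts before the pretreatment. It had 953, 917, 849, 913 and 876 after 3 days of water and 725, 710.1, 704, 448 and 680.5 after 3 days of ethanol, and again no ethanol sample reached a water sample (log2 fold change -0.45, SE 0.10, adjusted p = 0.0465). At 10 DAD it had 347, 419.8, 469.7, 154 and 279 in water-treated plants and 119, 171, 249, 241 and 156 in ethanol-treated plants, which overlapped (log2 fold change -0.82, SE 0.30, adjusted p = 0.462). Without water-treated replicate 4, the lowest of its group, the value at 10 DAD was -1.0 and NIR1 was called lower.

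During drought NIR1 fell in both pretreatments from 0 to 10 DAD. The change was -1.4 in water-treated plants (SE 0.23, adjusted p = 0.000413) and -1.79 in ethanol-treated plants (SE 0.20, adjusted p = 1.27e-05). At 13 DAD the libraries were 563, 274, 226, 326 and 479 with water and 187, 198, 175, 482 and 464 with ethanol, and the groups overlapped (log2 fold change -0.25, SE 0.38, adjusted p = 0.65). The ethanol libraries lay in a lower set of 3 and an upper pair. The fall from 0 to 13 DAD in ethanol-treated plants was -1.04, and it no longer passed the fold threshold when any 1 of the 3 lower libraries was left out or with scaling by library size alone.

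NRT1.1 was called in 0 of the 13 comparisons by edgeR and by DESeq2, while 7 of its 13 unadjusted p-values were under 0.05. It had 443, 325, 406, 381 and 409 normalized counts at 0 DAD with water and 362, 516, 492, 488 and 365 with ethanol. At 10 DAD the water-treated plants had 568, 507, 553, 527 and 587 and the ethanol-treated plants 374, 484, 488, 451 and 486, and at 13 DAD they had 229, 363, 353, 396 and 354 and 277, 187, 291, 228 and 210.3. At 10 DAD all ethanol samples lay below all water samples, but the difference did not pass the test (log2 fold change -0.255, SE 0.106, adjusted p = 0.48). The groups overlapped at 13 DAD, with a log2 difference under the fold threshold (log2 fold change -0.45, SE 0.16, adjusted p = 0.0422). From 0 to 13 DAD it changed by -0.20 with water (adjusted p = 0.18) and by -0.82 with ethanol (adjusted p = 0.000193).

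NRT2.1 was at the limit of detection in these shoots. Its normalized counts were 3.5, 6.2, 5.3, 20.3 and 3.8 at 0 DAD with water and 5.7, 4.6, 0.9, 0.0 and 5.0 with ethanol. In water-treated plants at 13 DAD 4 of the 5 libraries had 0 counts and the other had 1 raw count. In ethanol-treated plants at 13 DAD the 5 libraries held 3 raw counts together. A count of 0 allows up to 3 counts in a library, so the 2 groups at 13 DAD could not be told apart at this depth, and no fold change is given. Without the filter on low counts, DESeq2 and edgeR both called NRT2.1 lower in water-treated plants at 10 and at 13 DAD than at 0 DAD, where replicate 4 had 24 raw counts and the others 4 to 11.

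Cytosolic and chloroplast glutamine synthetase went in opposite directions under drought. GLN1;1 had 1109, 1024, 1218, 1014 and 1002 normalized counts before the pretreatment, 925, 803, 855, 764 and 925 at 0 DAD with water and 815, 1142, 1183, 1604 and 1009 with ethanol. It rose by 10 DAD to 1976, 2153, 3033, 4716 and 4080.1 in water-treated plants and to 3811, 3081, 2668, 4567 and 5285 in ethanol-treated plants. Both changes passed the test, with log2 fold changes of 1.94 (SE 0.22, adjusted p = 7.2e-06) and 1.77 (SE 0.23, adjusted p = 0.000105). At 13 DAD GLN1;1 had 2594, 2246, 2691, 2243 and 2604 with water and 4565, 4632, 4091, 4127 and 4029 with ethanol. The ethanol samples all lay above the water samples, under the fold threshold (log2 fold change 0.84, SE 0.11, adjusted p = 5.7e-05), and with scaling by library size alone the value was 1.1 and GLN1;1 was called higher.

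GLN2 had 8252, 8366, 8172, 8393 and 8439 normalized counts before the pretreatment. At 0 DAD it had 8059.6, 8576, 7715, 9042 and 8017 with water and 8652, 6955, 6531, 5980.3 and 7309 with ethanol (log2 fold change -0.22, SE 0.091, adjusted p = 0.369). At 10 DAD it had 4658, 5614, 5121, 2824 and 3774 with water and 3677, 4184, 4100.3, 3497 and 3003 with ethanol, and the groups overlapped. At 13 DAD the water-treated plants were down to 1241, 984, 799, 1049.8 and 1070.2 and the ethanol-treated plants to 1790.0, 1569, 2476, 1285 and 1367. The lowest ethanol sample was just above the highest water sample (log2 fold change 0.78, SE 0.17, adjusted p = 0.00267), and with scaling by library size alone the value was 1.03 and GLN2 was called higher.

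From 0 to 13 DAD GLN2 changed by -2.99 on the log2 scale in water-treated plants and by -1.99 in ethanol-treated plants, and both falls passed the test. The interaction from 10 to 13 DAD was 1.0 (adjusted p = 0.00668). Leaving out any 1 of 11 libraries ended that call, as did RLE size factors, DESeq2 and the replicate number as a block. Other genes of photosynthetic leaf cells moved with it. The summed normalized counts of 8 such genes, among them RBCS1A for the small subunit of Rubisco, were 549700 to 701400 in water-treated plants at 0 DAD, 20150 to 27140 in them at 13 DAD and 26010 to 72040 in ethanol-treated plants at 13 DAD. Of the 8, 7 fell in each pretreatment from 0 to 13 DAD, where 30.0% of all genes fell with water and 24.8% with ethanol. At 13 DAD 3 of the 8 were higher with ethanol than with water, as were 8.79% of all genes. The part of the 8 in the GLN2 result was not tested. In these bulk samples, fewer cells of a type and less RNA per cell cannot be told apart.

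The glutamate dehydrogenases, which can release ammonium from glutamate, also went apart. GDH1 had 196, 158, 169.5, 195 and 148 normalized counts before the pretreatment, and all samples were higher after 3 days. It then had 365, 258, 328, 309 and 264 with water and 284, 354, 276, 286 and 391 with ethanol. The difference from the earlier group was under the fold threshold with water (log2 fold change 0.83, SE 0.12, adjusted p = 3.01e-05) and with ethanol (log2 fold change 0.90, SE 0.12, adjusted p = 5.85e-06), and these comparisons share the earlier group. At 10 DAD GDH1 had 569, 539, 322, 343 and 365 with water and 269.9, 403, 421, 292 and 336 with ethanol.

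At 13 DAD GDH1 had 84.3, 88.5, 79.2, 125 and 109 with water and 99.8, 108, 82.7, 65.9 and 47.2 with ethanol, and the 2 groups overlapped (log2 fold change -0.22, SE 0.23, adjusted p = 0.486). From 10 to 13 DAD it changed by -2.19 on the log2 scale with water (SE 0.19, adjusted p = 1.95e-09) and by -2.1 with ethanol (SE 0.21, adjusted p = 1.18e-06). The test of the difference between these steps gave 0.06 (SE 0.29, adjusted p = 0.922).

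GDH2 had 392, 198, 265, 272 and 288 normalized counts at 0 DAD with water and 164, 378, 249.9, 272 and 287 with ethanol, and at 10 DAD 197, 208, 178, 129 and 151 and 107, 134, 179, 122 and 154. At 13 DAD it had 385, 642, 538, 579 and 533 with water and 188, 169, 175, 269 and 243 with ethanol. The lowest water sample was above the highest ethanol sample (log2 fold change -1.3, SE 0.16, adjusted p = 2.31e-05). In water-treated plants GDH2 rose from 10 to 13 DAD (log2 fold change 1.58, SE 0.15, adjusted p = 1.65e-08), and in ethanol-treated plants the same step was under the fold threshold (log2 fold change 0.60, SE 0.18, adjusted p = 0.00933). The interaction was -1.02 (adjusted p = 0.00391) and lost its call without any 1 of 7 libraries, with scaling by library size alone, with a filter at a mean of 20 counts and with the replicate number as a block.

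ASPGB1 showed the largest difference between the pretreatments among the 9 tested genes. It had 19.5, 10.8, 14.9, 3.8 and 10.9 normalized counts before the pretreatment, 17.4, 20.9, 9.9, 13.5 and 26.9 at 0 DAD with water and 18.9, 54.1, 14.2, 12.8 and 7.5 with ethanol. At 10 DAD it had 4.7, 12.7, 10.4, 23.1 and 16.2 with water and 24.1, 11.9, 7.7, 29.0 and 8.2 with ethanol, all of them low counts. At 13 DAD it had 15.6, 15.2, 12.8, 22.5 and 33.6 with water and 332, 316, 199.5, 197 and 175 with ethanol. The lowest of these ethanol samples was above every other library of the series, with means of 244 ± 73.9 against 19.96 ± 8.47 (SD, n = 5).

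The difference at 13 DAD was 3.66 on the log2 scale (SE 0.28, adjusted p = 5.68e-07), and the rise from 10 DAD in ethanol-treated plants was 3.9 (SE 0.34, adjusted p = 5.33e-07). In water-treated plants the same step was 0.51 (SE 0.43, adjusted p = 0.309), and the interaction was 3.36 (SE 0.55, adjusted p = 0.000188). Senescence markers did not move as one between the same groups. SAG12, a cysteine protease of old leaves, had 82.1 to 586 normalized counts with water and 1036 to 5735 with ethanol at 13 DAD, while SAG13 had 3226 to 5123 with water and 720.2 to 1745 with ethanol. The 7 senescence markers summed to 13470 to 17120 with water and 11840 to 18110 with ethanol, with 0 at 0 counts. Of the 7, 2 were called higher, as were 8.79% of all genes, and 1 lower, as were 4.78%. The part of the 7 in the ASPGB1 result was not tested.

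Counted over the drought steps, the calls of the 9 tested genes stand beside large backgrounds. In water-treated plants from 0 to 10 DAD GLN1;1 rose and NIR1 fell, where 6.26% of all genes rose and 10.6% fell. From 10 to 13 DAD GDH2 rose and NIA1, GLN2 and GDH1 fell, where 17.9% rose and 25.6% fell. From 0 to 13 DAD GLN1;1 rose and NIA1, NIR1, GLN2 and GDH1 fell, where 22.6% rose and 30.0% fell. The median log2 fold change over the 9 genes was -0.80 in that last comparison, and over all genes it was -0.046.

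In ethanol-treated plants from 0 to 10 DAD GLN1;1 rose and NIR1 fell, where 5.74% of all genes rose and 11.8% fell. From 10 to 13 DAD ASPGB1 rose and NIA2, GLN2 and GDH1 fell, where 12.9% rose and 17.9% fell. From 0 to 13 DAD GLN1;1 and ASPGB1 rose and NIA2, NIR1, GLN2 and GDH1 fell, where 19.5% rose and 24.8% fell. The median over the 9 genes was -0.82 and over all genes 0.032. The 3 days of pretreatment themselves moved none of the 9 genes past both thresholds. With water edgeR and DESeq2 called 0, where 2.36% of all genes were called, and with ethanol 0, where 3.92% were called. Without the fold threshold, 3 of the 9 had an edgeR adjusted p under 0.1 with water (NIA2 and GDH1 upwards, GLN1;1 downwards). With ethanol 4 did: GDH1 upwards, and GLN2, NIR1 (-0.68, adjusted p = 0.000755) and NIA1 (-0.79, adjusted p = 0.00126) downwards. The share of all genes at such an adjusted p is not given here, and the NIA1 level after ethanol was known when the genes were chosen. An unadjusted p under 0.05 was found with water for 5 of the 9 and for 4620 of all 17203 genes, and with ethanol for 4 of the 9 and for 5623 of all 17084.

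The ethanol difference at 10 DAD was also tested against that at 0 DAD. Of the 9 genes, edgeR and DESeq2 called 0, where 0.12% of all genes were called. An unadjusted p under 0.05 was found for 1 of the 9 and for 1559 of all 17531 genes. Between 10 and 13 DAD the ethanol difference changed upwards for NIA1, GLN2 and ASPGB1, as it did for 8.61% of all genes. It changed downwards for NIA2 and GDH2, as it did for 4.06% of all genes.

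**Figure D3:**
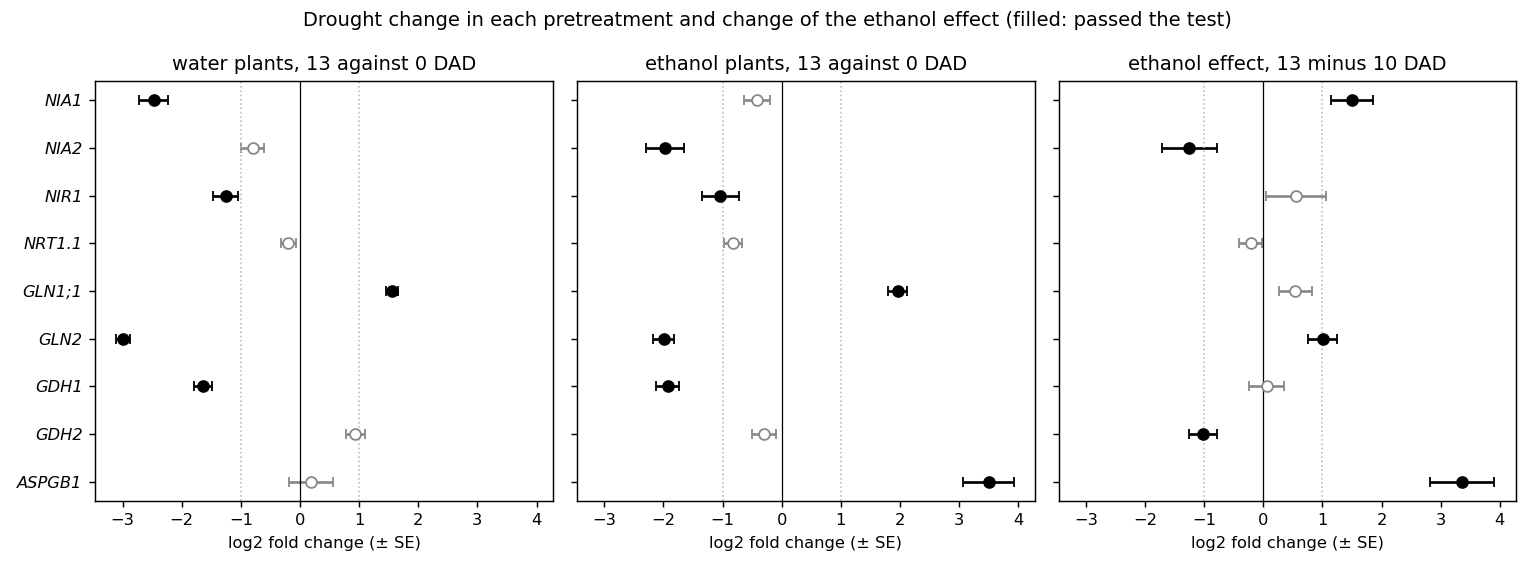
Log2 fold change (x axes, with the SE as bars) of the 9 tested genes from 0 to 13 DAD in water-treated plants (left), in ethanol-treated plants (middle), and the change of the ethanol difference from 10 to 13 DAD (right). Filled points passed the test; GLN2 stands at -2.99 with water and -1.99 with ethanol, and ASPGB1 at 0.19 and 3.5.

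Ratios of 2 genes within a library do not depend on how libraries are scaled against each other. The log2 ratio of NIA1 to NIA2 raw counts, each with 1 added, was -2.50 ± 0.24 (SD, n = 5) with water and -3.04 ± 0.35 (SD, n = 5) with ethanol at 0 DAD. At 13 DAD it was -4.14 ± 0.65 (SD, n = 5) with water and -1.28 ± 0.80 (SD, n = 5) with ethanol, and the groups did not overlap. That difference of 2.86 had an exact permutation p of 0.00794 (2-sided, the smallest that 5 against 5 allow) and 0.0714 after adjustment over 9 ratio tests. The ratios were not corrected for gene length and are read only between groups.

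The ratio of GDH1 to GDH2 at 13 DAD was -2.45 ± 0.32 (SD, n = 5) with water and -1.39 ± 0.74 (SD, n = 5) with ethanol (exact permutation p = 0.0317, 2-sided, adjusted 0.0893). GLN1;1 to GLN2 moved with drought in both pretreatments, from -3.28 ± 0.20 (SD, n = 5) at 0 DAD to 1.28 ± 0.28 (SD, n = 5) at 13 DAD with water. With ethanol it went from -2.65 ± 0.55 to 1.38 ± 0.38 (SD, n = 5). The pretreatments differed in this ratio by 0.63 at 0 DAD (exact permutation p = 0.0397, 2-sided, adjusted 0.0893) and by 0.10 at 13 DAD (exact permutation p = 0.643, 2-sided, adjusted 0.827). The adjusted values of 0.0714 and 0.0893 are under 0.1, the threshold used for the genes, and none was under 0.05. The values of 0.0893 are not read as a pass, for the reason given next. The tests also covered NIA1 to NIA2 at 0 DAD (exact permutation, adjusted 0.0893). That ratio holds the NIA1 values known when the genes were chosen, and nothing is read from it. Its p-value took part in the adjustment of the other ratios, and no adjustment without it is given. Whether GDH1 to GDH2 at 13 DAD and GLN1;1 to GLN2 at 0 DAD would stay under 0.1 is therefore not decided here.

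**Figure D4:**
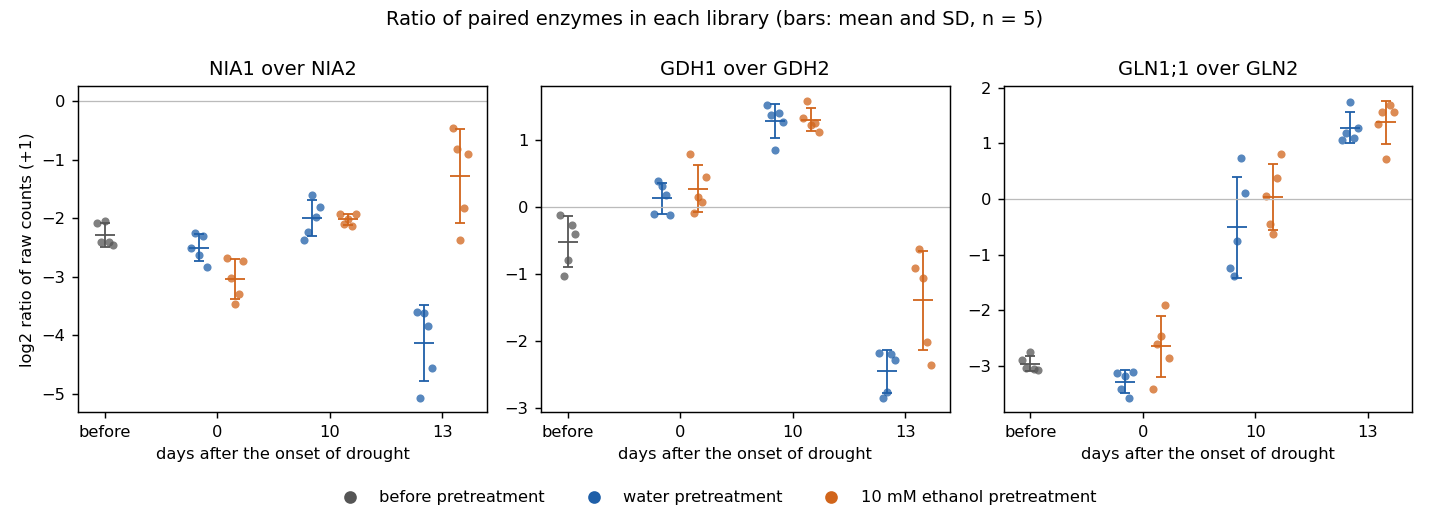
Log2 ratio of raw counts, each with 1 added, of 3 enzyme pairs (y axes) in each library before the pretreatment and at 0, 10 and 13 DAD (x axes). Points are libraries and bars the mean and SD of 5 libraries; at 13 DAD the NIA1 to NIA2 ratio lies at -5.07 to -3.60 with water (blue) and -2.38 to -0.46 with ethanol (orange).

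The rest of the pathway was followed with 95 genes in 5 lists, drawn up with earlier results of these data known. The lists were not tested against the shares of all genes, so the shares printed beside them are descriptions only. Between ethanol and water, edgeR and DESeq2 called 0 of the 80 tested list genes at 0 DAD and 0 of 82 at 10 DAD. An unadjusted edgeR p under 0.05 was found for 17 at 0 DAD (1865 of all 17242 genes) and for 15 at 10 DAD (1436 of all 16171 genes). At 13 DAD 14 of 80 were higher (17.5%, against 8.79% of all genes) and 8 were lower (10.0%, against 4.78%). All 22 kept their sign with library size scaling, with RLE size factors and with DESeq2, and with library size scaling 20 of them were still called, all but ASP3 and HHO2.

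Of the nitrate and ammonium transporters 15 were tested, and 2 were higher and 4 lower with ethanol at 13 DAD, with a median of -0.32. AMT1;2, an ammonium transporter, had 0.0 to 11.3 normalized counts with water and 15.7 to 184 with ethanol (log2 fold change 3.82, SE 0.85, adjusted p = 0.00694). NRT1.9, known for loading nitrate into root phloem, differed by 2.88. Lower were NRT1.8, which takes nitrate back from the xylem (-2.2), the vacuolar exchanger CLCa (-1.66), the NRT2 partner protein NRT3.1 (-1.58) and the anion channel SLAH3 (-1.28). Of 11 root marker genes, 1 (PYK10) had enough counts for the test and was higher with ethanol (1.79). The 11 summed to 45.1 to 89.1 with water and 95.1 to 246 with ethanol at 13 DAD. PYK10 made up most of these sums, with medians of 40.86 with water and 172.2 with ethanol, so they do not speak for the list. COBL9, at few counts, went the other way, with 2.8 to 16.4 with water and 0.0 to 7.6 with ethanol. Those at 0 in both groups included the endodermis gene CASP5 and the iron transporter gene IRT1. The part of the 11 genes in the transporter values was not tested.

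Among 17 tested genes of ammonium assimilation and amino group transfer, 4 were higher and 1 lower with ethanol at 13 DAD, with a median of -0.53. GLN1;4, another cytosolic glutamine synthetase, had 73.3 to 120.0 normalized counts with water and 349 to 868 with ethanol (log2 fold change 2.61, SE 0.26, adjusted p = 1.75e-05). GDH3 was also higher but had a mean under 20 counts. The asparagine synthetase ASN3 differed by 1.75 and the leaf glutamate synthase GLU1 by 1.122. The aspartate aminotransferase ASP3, the only lower gene of this list and not called with library size scaling, was lower (-1.18), with 2613 to 3929 with water and 604 to 2086 with ethanol. ASN1, the asparagine synthetase that rises in the dark and under low sugar, rose within the 3 days before drought. It went from 31.1 to 67.4 before the pretreatment to 288 to 534 with water (3.19, adjusted p = 8.88e-06) and 373 to 665 with ethanol (3.38, adjusted p = 4.39e-08).

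The genes that release nitrogen from purines, arginine, urea and glutamate had 4 of 14 higher and 0 lower with ethanol at 13 DAD, with a median of 0.47, where the median of all genes was 0.038. Among these, 3 act in a row in the breakdown of the purine product allantoin. Allantoinase ALN had 7.0 to 37.3 normalized counts with water and 105 to 287 with ethanol (log2 fold change 3.06, SE 0.39, adjusted p = 0.000132). Allantoate amidohydrolase AAH differed by 1.27 and ureidoglycine aminohydrolase UGLYAH by 1.62. The arginase ARGAH2 had 27.3 to 67.3 with water and 125 to 739 with ethanol (log2 fold change 2.96, SE 0.53, adjusted p = 0.00235). In water-treated plants ARGAH2 fell from 0 to 13 DAD (-4.51) and so did ALN (-2.19), while in ethanol-treated plants the same values were -0.77 (adjusted p = 0.158) and 0.32 (adjusted p = 0.245).

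Of the nitrate signalling genes at 13 DAD, 4 of 20 were higher and 3 lower, with a median of -0.17. The higher ones were NLP6, counted below a mean of 20, and 3 other members of the NIN-LIKE PROTEIN family, to which the nitrate sensor NLP7 belongs, namely NLP9 at 1.61, NLP1 at 1.3 and NLP8 at 1.24. The lower ones were LBD39 (-2.87) and LBD37 (-1.53), repressors that respond to nitrate, and the GARP transcription factor gene HHO2 (-1.01). LBD39 had 33.6 to 116 normalized counts with water and 1.3 to 12.8 with ethanol. None of the 14 tested genes for cofactors and reductant of nitrate and nitrite reductase was called at 13 DAD by edgeR or DESeq2. Their median was -0.22. An unadjusted edgeR p under 0.05 was found for 6 of the 14 and for 6610 of all 15394 genes.

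**Figure D5:**
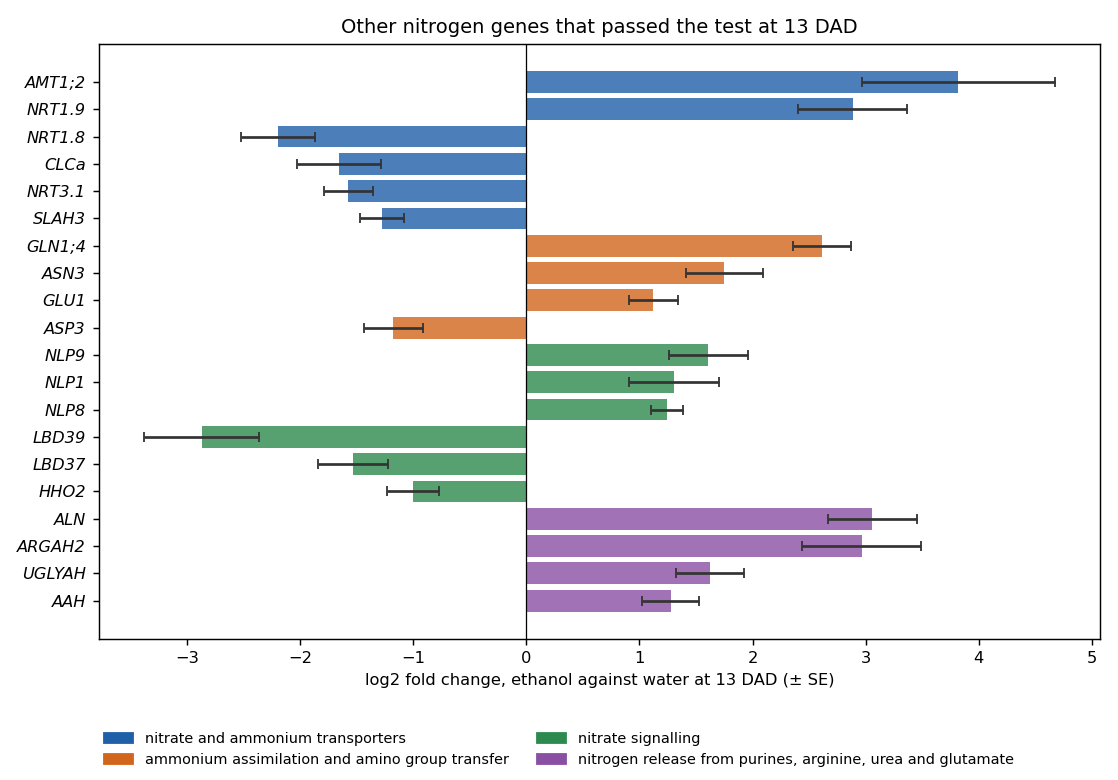
Log2 fold change of ethanol-treated against water-treated plants at 13 DAD (x axis, bars from 0 with the SE) for the 20 list genes that passed the test and had a mean of at least 20 normalized counts. Colours mark the 4 lists; ALN, ARGAH2, UGLYAH and AAH of the nitrogen release list all lie to the right of 0.

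With water, 23 of 81 tested list genes rose from 0 to 13 DAD (28.4%, against 22.6% of all genes) and 22 fell (27.2%, against 30.0%). With ethanol, 25 of 83 rose (30.1%, against 19.5%) and 16 fell (19.3%, against 24.8%). The lists were not tested against these shares. The transporters NRT1.5, which loads nitrate into the xylem, and NRT1.7, which moves nitrate out of old leaves, rose with water (3.96 and 2.99) and with ethanol (3.41 and 1.84). POP2, the transaminase of gamma-aminobutyrate, rose by 2.47 and 1.79, and the urea transporter DUR3 by 2.68 and 2.85. The asparagine synthetase gene ASN2 fell (-4.63 with water and -4.25 with ethanol).

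Nitrate reductase transcripts are known to follow the time of day, and the hour of harvest is not given in the sources used here. Of 9 daily clock genes, 0 were called between ethanol and water at 0 or 10 DAD by edgeR or DESeq2. An unadjusted edgeR p under 0.05 was found at 0 DAD for 1865 of all 17242 genes and 4 of the 9 clock genes. At 10 DAD it was found for 1436 of all 16171 genes and 2 of the 9 clock genes. Their summed normalized counts were 1644 to 2041 with water and 1739 to 2100 with ethanol at 0 DAD, and 2419 to 2607 with water and 1967 to 2224 with ethanol at 13 DAD, but single clock genes moved in opposite directions. With water, the morning gene CCA1 had a median of 99.1 normalized counts at 0 DAD and 1117 at 13 DAD, LHY 32.1 and 514, and the evening gene LUX 135 and 26.5. At 13 DAD LHY was lower with ethanol (185 to 265, against 378 to 580.2 with water), a call lost with library size scaling, and GI had 185 to 226 with ethanol and 101 to 132 with water, under the fold threshold. In all, 3 of the 9 rose and 2 fell with water from 0 to 13 DAD, where 22.6% of all genes rose and 30.0% fell. With ethanol 3 rose and 3 fell, where 19.5% of all genes rose and 24.8% fell. Against the group before the pretreatment, 1 of the 9 was called lower and 0 higher at 0 DAD, with water and also with ethanol. Of all genes, 2.36% were called in either direction with water and 3.92% with ethanol. ELF4 had 607 to 824 before the pretreatment, and 196 to 290 with water and 260 to 326 with ethanol at 0 DAD. The part of the clock genes in the changes of the 10 genes, and in the rise of ASN1 before drought, was not tested.

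For each gene the most similar patterns were sought among 15252 genes by Pearson's r of log2 normalized counts over the 35 libraries, a description over points that share groups. GLN2 was most like AT1G74730 (0.992), GLN1;1 most like the transcription factor gene TGA7 (0.989) and the vacuolar protease gene GAMMA-VPE (0.982), and GDH1 most like AT4G27740 (0.953). GDH2 was most like AT1G03220 (0.936), NIR1 most like AT5G04800 (0.907), NRT1.1 most like STR16 (0.907) and NIA2 most like AT4G19410 (0.898). ASPGB1 was most like BT1 (0.855) and TT7, a flavonoid hydroxylase gene (0.85). NIA1 was most like NAS1, a nicotianamine synthase gene (0.841). Among the 10 themselves, r was -0.87 between NIR1 and GLN1;1, -0.74 between NIA2 and ASPGB1, and 0.80 between NIA1 and GLN2.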

How the data were processed

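RNA-seq libraries of 35 shoot samples were analysed, 5 in each of 7 groups taken from the sample labels. The authors trimmed the reads with Trimmomatic, aligned them to TAIR10 (HISAT2) and used featureCounts for strand-specific counts per gene, a read being counted for each gene it overlaps. The deposited raw counts were used for tests. Levels are the deposited normalized counts, a signal equal to the raw counts times 1 factor per library. Such scaling leaves low counts imprecise, and totals of 3589540 to 13440389 counts limit genes such as NRT2.1. 0 columns had no sample.

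Each comparison was fitted over all genes of its 10 libraries (20 for an interaction) in edgeR 4.0.16 under R 4.3.3 (TMM, filterByExpr, robust quasi-likelihood F-test, Benjamini-Hochberg over all tested genes), and called where the adjusted p was under 0.1 and the log2 fold change 1 or more in size. The SE was taken as the size of the log2 fold change over the root of F. Ratios of raw counts (plus 1) were compared by exact permutation tests, adjusted over 9. Alternatives were DESeq2 1.42.0, RLE factors, library size only, 2 other count filters, a joint fit of the 7 groups, the replicate number as a block, non-robust dispersion, a threshold of 0.05, Spearman's rho for likeness, and each library left out. For the pathway lists, the other scalings and DESeq2 were added after the data were seen. The fits were tested on simulated data. The 10 genes are all named, and the list genes named are those called, up to 5 per direction and list, with a mean of at least 20 normalized counts. Gene positions and sequences are RefSeq's on TAIR10.1, whose annotation holds 26930 of the 27417 gene IDs, and copies were searched with BLAST 2.17.0. The members and lists were chosen with earlier results of these data known.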

Additional observations from a re-analysis of the deposited data

Results flagged for a closer look

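For 5 genes the ethanol difference itself changed from 10 to 13 DAD (edgeR interaction, adjusted p under 0.1 and at least 1 log2 unit). The change was 3.36 for ASPGB1, 1.5 for NIA1, 1.0 for GLN2, -1.25 for NIA2 and -1.02 for GDH2. The values for GLN2 and GDH2 lie at the fold threshold.

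Single libraries stood apart from the other 4 of their group in 8 of 70 sets of a gene and a group by Dixon's test at the 95% level, and chance gives about 1 in 20. NIA2 had 1142 normalized counts in water-treated replicate 2 at 13 DAD, against 547 to 707 in the others. NIR1 had 447.9 in ethanol-treated replicate 4 at 0 DAD, against 680.5 to 725.4 in the others. NRT1.1 had 228.7 in water-treated replicate 1 at 13 DAD, against 352.7 to 395.9. ASPGB1 had 54.14 in ethanol-treated replicate 2 at 0 DAD, against 7.52 to 18.9. The other 4 flags were NRT2.1 at a few counts, with 20.3 (water-treated replicate 4 at 0 DAD), 5.246 (water-treated replicate 4 at 10 DAD), 1.051 (water-treated replicate 5 at 13 DAD) and 3.192 (ethanol-treated replicate 2 at 13 DAD).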

How the results depend on the processing

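Of 2397 values of the 9 tested genes under an alternative, 2346 kept their side of the threshold, 41 lost the call and 10 gained it. No called value changed sign, and 59 of the 2346, called in neither setting, did. At 0 DAD 0 genes were lower with an adjusted p under 0.05 (1 as reported). At 13 DAD 4 genes were higher with ethanol when scaled by library size only (1 as reported), a scaling that moved the median of all genes from 0.038 to 0.298 and the calls over all genes from 1353 higher and 736 lower to 2243 higher and 457 lower. The same scaling moved the median from 0.007 to 0.244 in ethanol-treated plants from 0 to 10 DAD (971 higher and 2000 lower became 1725 and 1446) and from 0.032 to 0.33 from 0 to 13 DAD (3329 and 4242 became 4655 and 3428). It moved it from 0.024 to 0.149 in water-treated plants from 0 to 10 DAD (1045 and 1767 became 1414 and 1491), from 0.023 to 0.126 in ethanol-treated plants from 10 to 13 DAD (2125 and 2938 became 2434 and 2612) and from 0.066 to 0.245 in the later interaction (1471 and 694 became 2083 and 464). In water-treated plants 2 genes fell from 0 to 10 DAD with DESeq2 and with no filter beyond 1 count (1 as reported), since NRT2.1 then entered the test, and by the same gain 5 fell from 0 to 13 DAD (4 as reported). In the interaction from 10 to 13 DAD 1 gene was lower (2 as reported) with an adjusted p under 0.05, library size only, no filter beyond 1 count, a filter at a mean of 20 counts, and the replicate block. The cause was not tested.

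Leaving out 1 library at a time, the number of genes lower at 0 DAD was 0 to 1, lower at 10 DAD 0 to 1, higher in water-treated plants from 0 to 13 DAD 1 to 2, lower in ethanol-treated plants from 0 to 10 DAD 1 to 2, and lower in the interaction 0 to 2. In that order the genes gained or lost were NIA1, then NIR1, then GDH2, then NIA2 or GDH2, and in the interaction NIA2 and GDH2. Other counts changed by a smaller factor. GLN2 lost its interaction call without any 1 of 11 libraries. In ethanol-treated plants NIA2 lost its call from 10 to 13 DAD without either of 2 libraries, and NIR1 from 0 to 13 DAD without any 1 of 3. NIA2 gained a call as lower in water-treated plants from 0 to 13 DAD without water-treated replicate 2 at 13 DAD. Libraries with the same replicate number showed no strong common deviation (correlations of -0.421 to 0.224, with 0 to 2 of 5 pairs above 0.1 in a comparison). Depending on the comparison, 0 to 3 of 5 libraries were closest to the one of their own number. What a shared number stands for cannot be told from these values. With the replicate as a block the later interaction lost GLN2 and GDH2, and no other call of the 10 genes changed.

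By Spearman's rho the closest gene was another one than by Pearson's r for NIA2 (CDF1, 0.864), NIR1 (AT5G59850, 0.911) and GLN2 (RBCS1A, 0.986). The same held for GDH1 (AT1G78460, 0.921) and ASPGB1 (AT1G13880, 0.747). BT1 and TT7 were not among the 3 genes closest to ASPGB1 by rho. Genes with few counts, such as NRT2.1, are limited by depth.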
